A study of Mus musculus with 4 samples.

Results

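The 55 genes described here drive and mark the cell division cycle: 17 act in G1 and at the G1/S transition, 16 in DNA replication and 22 in mitosis. They were listed by symbol, with earlier results of these data known. Each was read from the array's probe sets that are annotated to its symbol alone, older symbols included. Such probe sets were found for 54 of the 55 genes out of 18193 genes on the array, and no probe set was listed with Ccnb1 alone. All 54 passed the filter on dim probe sets, a mean signal of at least 73.2, as did 12703 genes in all. Of 130 probe sets of these genes, 113 passed and 17 did not. A gene is represented by its brightest kept probe set.

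The RNA came from basal epidermal cells, the layer that rests on the basement membrane and holds the dividing progenitors, purified by flow cytometry from the skin of mouse embryos at embryonic day 16. Wild-type (WT) embryos were compared with embryos carrying a conditional knockout of Ezh2 (Ezh2cKO), 2 arrays each, and all were of mixed C57 and CD1 strain. Ezh2 is the methyltransferase of Polycomb repressive complex 2, and the study asked how expression in these progenitors changes when Polycomb silencing is lost. The driver of the recombinase is not given in the sources used here, nor whether the arrays of a genotype came from separate animals, so the spread behind each p-value is that between these 4 samples and may be technical.

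In G1, D-type cyclins with Cdk4 and Cdk6, and then cyclin E with Cdk2, phosphorylate the retinoblastoma family of pocket proteins and release E2F transcription factors. E2F activates genes for origin licensing, nucleotide supply and DNA synthesis. A later wave of mitotic genes is switched on in G2 by the MuvB complex with B-Myb and Foxm1. Promoters of such genes often hold CHR and CCAAT elements. In developing epidermis division takes place mainly in the basal layer, and cells leave the cycle as they move up and differentiate.

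Ezh2 itself had signals of 3336 and 3603 in WT and of 661 and 1308 in Ezh2cKO, 0.202 times WT within number 1 and 0.366 times within number 2. The number is the sample number that the labels give within each genotype. The median signal over all probe sets was 91.6 and 87.4 in the WT and Ezh2cKO arrays numbered 1 and 137 and 148 in those numbered 2. The arrays numbered 1 therefore stand apart from those numbered 2, and the differences are also given within the numbers, where each rests on 1 array per genotype. Summed signals of 11 basal markers were 88699 to 101217 in WT and 91383 to 94248 in Ezh2cKO, and Krt14 and Krt5, the defining basal keratins, lay between 14501 and 18518 on all 4 arrays. Of the 11, 1 was higher (9.09%) and 2 were lower (18.2%) in Ezh2cKO without overlap, beside 8.52% and 8.39% of all genes. The larger of the lower differences was that of Itga6, the integrin of the hemidesmosome, named after its values were seen, with 11908 and 10639 in WT and 6327 and 9411 in Ezh2cKO (log2 -0.54, limma unadjusted p 0.0499, adjusted p 0.999979).

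No gene of the cell cycle set passed the test between genotypes, and nor did Ezh2 itself. In limma 0 of its 113 probe sets had an adjusted p under 0.05, where 0% of all 27022 kept probe sets did, and the lowest adjusted p was 0.999979. At an unadjusted p under 0.05, Ezh2cKO was higher for 0 of the 113 and lower for 0, beside 0.348% higher (94) and 0.0592% lower (16) among all kept probe sets. The differences were also small. By the brightest probe set of each gene, the largest was a log2 difference of 0.37, for Ccnd1. Dimmer kept probe sets of E2f8, E2f3 and E2f2 gave 0.44, 0.39 and -0.38. By brightest probe sets 0 of the 54 genes differed by more than 0.5 on the log2 scale, as 534 of 12703 genes did. The median log2 difference (Ezh2cKO minus WT) was 0.0008 for the G1/S genes, -0.03 for the replication genes and -0.001 for the mitosis genes, beside -0.004 for all 12703 genes. In bulk RNA, fewer cycling cells and less RNA per cycling cell cannot be told apart, so these levels speak of the sample and not of single cells.

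Without Ezh2cKO replicate 1 the mitosis median was -0.27 and without Ezh2cKO replicate 2 it was 0.27. It was 0.12 without WT replicate 1 and -0.12 without WT replicate 2. The Ezh2cKO arrays lay on opposite sides of WT for most mitosis genes.

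In 8 of the 54 genes the arrays of the genotypes did not overlap. Both Ezh2cKO arrays lay above both WT arrays for 5 genes (Ccnd1, Ccnd2, Rb1, Mcm2 and Cdc25b), or 9.26% of the 54, beside 8.52% of all genes. Both lay below for 3 genes (E2f8, Rbl2 and Mcm3), or 5.56%, beside 8.39% of all genes. Both shares were near the background. When the arrays were scaled to a common median the counts were 0 and 0, beside 3.32% and 5.25% of all genes. With an array left out, only 3 arrays need to be apart and more genes are. Then the higher count ran from 7 (without Ezh2cKO replicate 1) to 34 (without Ezh2cKO replicate 2) and was 9 without WT replicate 1 and 12 without WT replicate 2. The lower count was 36, 5, 9 and 12 in the same order. Of all genes 29.6%, 36.7%, 24.9% and 25.3% were then higher and 35.8%, 30.9%, 25.2% and 25.4% lower, in that order.

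**Figure D1:**
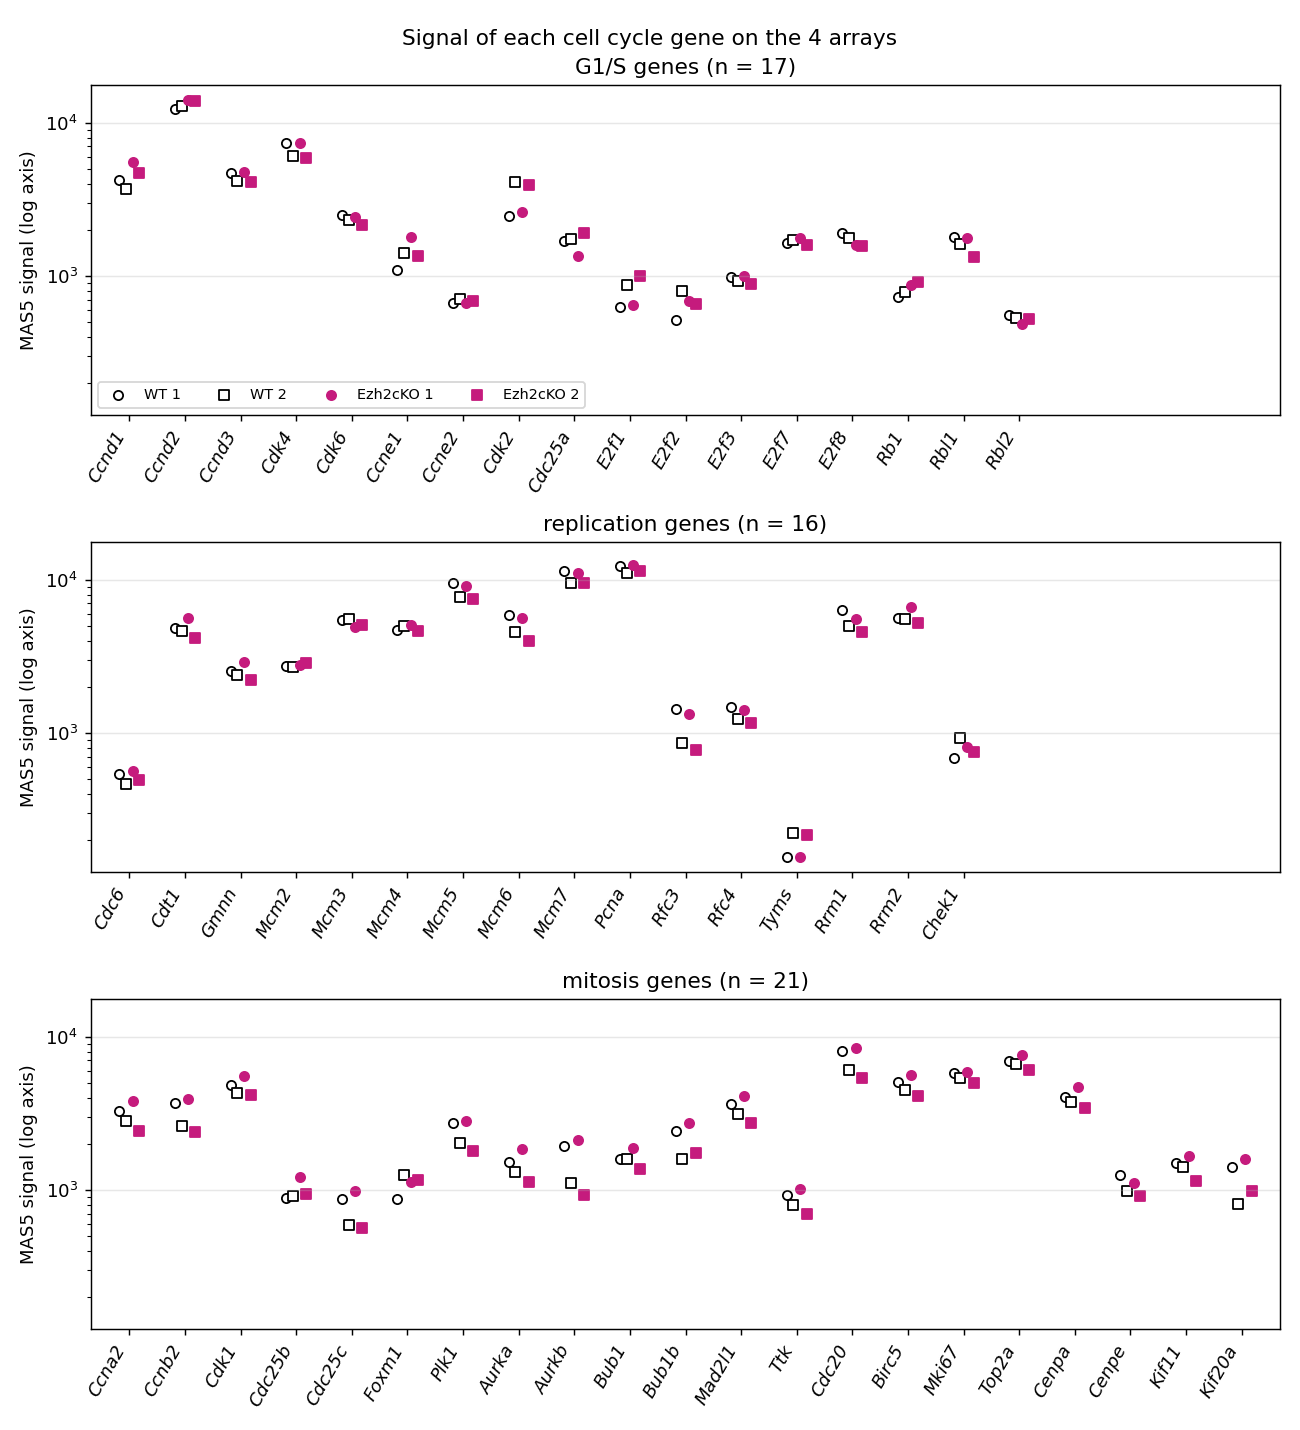
MAS5 signal (log axis) of the 54 genes, by phase, on each array. Open symbols are WT, filled symbols Ezh2cKO, circles number 1 and squares number 2. Each gene is shown by its brightest kept probe set. Among these Ccnd1 has the largest genotype difference (log2 0.37), and in most mitosis genes the filled circle is highest and the filled square lowest.

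The stretches before the annotated start of 5 genes are shown because they hold letters of the motifs known from the G1/S and mitotic waves. They are the 150 bases before the start, from RefSeq (GRCm38.p6), 5′ to 3′ on the gene's own strand, which is the minus strand in each case. Capitals mark matches on either strand to 3 kinds of motif. The E2F motif was searched as the letters TTCCCGC, also with the letters TTGGCGC, further as the variant TTCGCGC and last as the variant TTGCCGC. The CHR was searched as the letters TTTGAA and as the variant TTCGAA. The CCAAT box is the letters of its name. Cdk1, Cdc20 and Top2a represent the 3 mitotic roles, Mcm6 origin licensing and E2f8 the G1/S genes. They lie at chr10:69352913-69353062 (Cdk1), chr4:118437344-118437493 (Cdc20), chr11:99024190-99024339 (Top2a), chr1:128359706-128359855 (Mcm6) and chr7:48881597-48881746 (E2f8).
Cdk1: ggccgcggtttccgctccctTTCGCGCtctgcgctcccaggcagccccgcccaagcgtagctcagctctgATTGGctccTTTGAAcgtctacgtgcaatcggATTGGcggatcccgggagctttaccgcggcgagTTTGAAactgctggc
Cdc20: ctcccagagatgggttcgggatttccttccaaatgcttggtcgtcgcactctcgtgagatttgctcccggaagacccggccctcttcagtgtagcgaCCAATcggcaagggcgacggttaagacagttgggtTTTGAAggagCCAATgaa
Top2a: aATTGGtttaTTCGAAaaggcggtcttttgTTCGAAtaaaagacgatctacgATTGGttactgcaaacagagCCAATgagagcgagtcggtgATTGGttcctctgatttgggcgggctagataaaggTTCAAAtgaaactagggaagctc
Mcm6: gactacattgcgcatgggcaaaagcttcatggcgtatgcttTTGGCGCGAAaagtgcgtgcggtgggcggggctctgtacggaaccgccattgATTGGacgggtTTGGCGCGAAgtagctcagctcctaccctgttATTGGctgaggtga
E2f8: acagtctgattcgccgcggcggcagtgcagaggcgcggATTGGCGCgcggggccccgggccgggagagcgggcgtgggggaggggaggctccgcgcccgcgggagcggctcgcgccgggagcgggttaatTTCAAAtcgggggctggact

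The Cdk1 stretch holds 1 E2F motif, 2 CHRs and 2 CCAAT boxes. Cdc20 has 1 CHR, 18 bases before the start, and 2 CCAAT boxes, and Top2a has 3 CHRs and 4 CCAAT boxes, neither with an E2F motif. Mcm6 has 4 overlapping E2F matches in 2 places, 2 CCAAT boxes and no CHR. In E2f8 the single E2F match overlaps the single CCAAT box, and 1 CHR lies 20 bases before the start.

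Promoter entries were found for 44 of the 55 genes, in 48 windows (some genes have more than 1 start), and the 250 bases before each start were searched. Not matched were Aurkb, Gmnn, Mcm4, Foxm1, Kif20a, Cdc25c, Ccnd1, Ccne2, Ccnd2, Ccna2 and Rb1. An E2F motif was in 8 of 15 replication windows (53.3%), 6 of 16 G1/S windows (37.5%) and 3 of 17 mitosis windows (17.6%), beside 7.89% of all 32851 windows in the table. A CHR was in 7 of 17 mitosis windows (41.2%), 3 of 15 replication windows and 4 of 16 G1/S windows, beside 17.1% of all. A CCAAT box was in 15 of 17 mitosis windows (88.2%), 10 of 15 replication windows and 8 of 16 G1/S windows, beside 33.8% of all. A CHR together with a CCAAT box was in 7 of 17 mitosis windows and in 6.02% of all windows, and an E2F motif overlapped a CCAAT box in 2 of the 48 windows and in 124 of all. A match is a run of letters and says nothing of whether a factor binds there.

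Among the G1 cyclins, Ccnd1 (cyclin D1, the mitogen-induced partner of Cdk4 and Cdk6) had signals of 4229 and 3696 in WT and of 5574 and 4694 in Ezh2cKO. Both Ezh2cKO arrays were above both WT arrays, with a log2 difference of 0.37 (SE 0.17, 95% confidence interval -0.05 to 0.79). It was 0.40 within number 1 and 0.34 within number 2. These values are from the brightest of its 3 probe sets. The other 2 overlapped between genotypes, with signals of 3414 and 3548 in WT and 3538 and 4485 in Ezh2cKO for the brighter of them. The dimmest gave a log2 difference of 0.06, and of -0.27 within number 1. Ccnd2 (cyclin D2) had 12213 and 12812 in WT and 14065 and 13867 in Ezh2cKO, again without overlap (log2 0.16, SE 0.12), and 3 of its 7 probe sets did not overlap, with differences from -0.01 to 0.24 over the 7. Ccnd3 (cyclin D3) had 4659 and 4187 in WT and 4760 and 4104 in Ezh2cKO, with Ezh2cKO as both the highest and the lowest array. None of the D-type cyclins passed the test, and whether they differed from each other was not tested.

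Cdk4, the cyclin D kinase, had 7366 and 6102 in WT and 7411 and 5914 in Ezh2cKO, high in the arrays numbered 1 and low in those numbered 2. Of the 3 kept probe sets of Cdk4, 1 was lower without overlap and 2 overlapped. The lower one had 6318 and 6062 in WT and 5837 and 5906 in Ezh2cKO (log2 -0.08). Cdk2, the partner of cyclin E, was low in the arrays numbered 1, with 2447 and 4088 in WT and 2617 and 3905 in Ezh2cKO. By brightest probe sets, Ccne1 (cyclin E1) had the largest difference within a number, 0.70 in log2 within number 1 but -0.06 within number 2. Its signals were 1095 and 1403 in WT and 1793 and 1343 in Ezh2cKO. The other kept probe set of Ccne1 gave 0.05 within number 1 and 0.24 within number 2. The remaining genes of this role overlapped between genotypes. Cdc25a, the phosphatase that activates Cdk2, had 1679 and 1743 in WT and 1349 and 1911 in Ezh2cKO. By brightest probe sets it was the only gene of the 54 lower within number 1 and higher within number 2. Of all genes 21.6% had that arrangement. The other kept probe set of Cdc25a gave 0.06 within number 1 and -0.29 within number 2. Over all 39 kept probe sets of the G1/S genes, 10 were lower within number 1 and higher within number 2, beside 6397 of all 23069.

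Of the E2F and pocket protein genes, E2f8, an atypical E2F that represses E2F targets late in S phase, had 1914 and 1763 in WT and 1592 and 1572 in Ezh2cKO. Both Ezh2cKO arrays were lower (log2 -0.21, SE 0.17), while a second, dim probe set with a mean signal of 83.4 gave 0.44. Rb1, the retinoblastoma protein that holds E2F in check, had 734 and 785 in WT and 873 and 917 in Ezh2cKO, both higher (log2 0.23, SE 0.19). Rbl2, the pocket protein p130 of quiescent cells, had 558 and 529 in WT and 482 and 526 in Ezh2cKO. The gap between the closest arrays of the genotypes was small for Rbl2 (log2 -0.11, SE 0.21), and its other probe set gave 0.10.

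E2f1, an activator E2F, had 625 and 879 in WT and 643 and 1003 in Ezh2cKO, low in both arrays numbered 1. E2f2 had 517 and 796 in WT and 682 and 659 in Ezh2cKO, so that WT held both extremes. The G1/S genes as a whole had a median log2 difference of 0.03 within number 1 and -0.04 within number 2, close to the values for all genes (0.02 and -0.01).

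Among the origin licensing genes, which load the MCM helicase onto DNA before S phase, Mcm2 had 2725 and 2698 in WT and 2788 and 2878 in Ezh2cKO. Both Ezh2cKO arrays were higher, but by a log2 difference of 0.06 (SE 0.15). Mcm3 had 5471 and 5505 in WT and 4901 and 5077 in Ezh2cKO, both lower (log2 -0.14, SE 0.13), and 4 of its 5 probe sets overlapped, with differences from -0.32 to 0.11 over the 5. Neither subunit passed the test.

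Mcm6 had 5900 and 4582 in WT and 5612 and 3967 in Ezh2cKO (log2 -0.14, SE 0.23), and Mcm7 had 11453 and 9540 in WT and 11122 and 9445 in Ezh2cKO (log2 -0.03, SE 0.16). In these probe sets of both genes the arrays numbered 1 were high and those numbered 2 low in either genotype. The other kept probe set of Mcm6 had 4469 and 4019 in WT and 3295 and 3809 in Ezh2cKO, lower without overlap (log2 -0.26). Of the 4 kept probe sets of Mcm7, 1 was lower without overlap (log2 -0.22) and 3 overlapped, with differences from -0.22 to 0.12 over the 4. Cdt1, the MCM loading factor, had 4863 and 4641 in WT and 5588 and 4183 in Ezh2cKO. Gmnn, which encodes the Cdt1 inhibitor geminin, had 2528 and 2384 in WT and 2924 and 2204 in Ezh2cKO. In these probe sets of Cdt1 and Gmnn alike Ezh2cKO replicate 1 was the highest array and Ezh2cKO replicate 2 the lowest. The other kept probe set of Cdt1 had 2952 and 3160 in WT and 2783 and 2517 in Ezh2cKO, lower without overlap (log2 -0.21).

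At the fork, Pcna, the sliding clamp, had 12301 and 11045 in WT and 12504 and 11365 in Ezh2cKO (log2 0.03, SE 0.13). Rrm1, the large subunit of ribonucleotide reductase, had 6348 and 5023 in WT and 5561 and 4584 in Ezh2cKO (log2 -0.16, SE 0.19). Rrm2, its small subunit, had 5598 and 5568 in WT and 6669 and 5191 in Ezh2cKO (log2 0.08, SE 0.17). Rrm1 was lower in Ezh2cKO within both numbers, whereas Rrm2 was higher within number 1 and lower within number 2. Rfc3, a subunit of the clamp loader, had 1437 and 863 in WT and 1321 and 774 in Ezh2cKO, high in the arrays numbered 1. Tyms, which makes thymidylate, had 156 and 223 in WT and 155 and 215 in Ezh2cKO, and a probe set that lists it with another gene was left out.

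Of the 16 replication genes, 8 were lower in Ezh2cKO within both numbers and 3 were higher within both, beside 25.6% and 25.2% of all genes. Among the 54 other G1/S and replication genes described below, 12 (22.2%) were lower within both and 4 (7.41%) higher. The median log2 difference of the 16 replication genes was 0.006 within number 1 and -0.10 within number 2. Of the 22 kept replication probe sets that were not the brightest of their gene, 10 were lower within both numbers and 1 was higher. Among all 23069 kept single-symbol probe sets 5430 were lower and 5760 higher. All 8 lower genes differed by less than their SE except Mcm3, and none passed the test. That SE is from the fit without a block, so it includes the shift between the numbers. For Rfc3 the SE was 0.37, while the difference was -0.12 within number 1 and -0.15 within number 2.

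Most mitosis genes shared an arrangement over the arrays in which the Ezh2cKO arrays lay on either side of WT. Of the 21, 17 (81.0%) were higher in Ezh2cKO within number 1 and lower within number 2, beside 27.6% of all genes and 33.9% of the 7410 genes with a mean signal of at least 500. The count was 8 of 17 for G1/S and 5 of 16 for replication. Among the other pathway genes described below it was 34 of 54 (63.0%) for G1/S and replication and 41 of 68 (60.3%) for mitosis. The arrangement was thus not particular to mitosis genes. The median log2 difference of the mitosis genes was 0.17 within number 1 and -0.13 within number 2. In 16 of the 21 the signals ran from Ezh2cKO replicate 1 through WT replicate 1 and WT replicate 2 down to Ezh2cKO replicate 2. That order was found in 14.4% of all genes and 20.9% of those with a mean signal of at least 500. Of the other pathway genes, 24 of 68 mitosis genes and 21 of 54 G1/S and replication genes had it. Alternatives for the 17 of 21 were chosen after seeing the data. The count was then 18 with arrays scaled to a common median and 17 with quantile normalization, other pseudocounts and other filters. The common median also raised the share over all genes, to 47.2%.

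**Figure D2:**
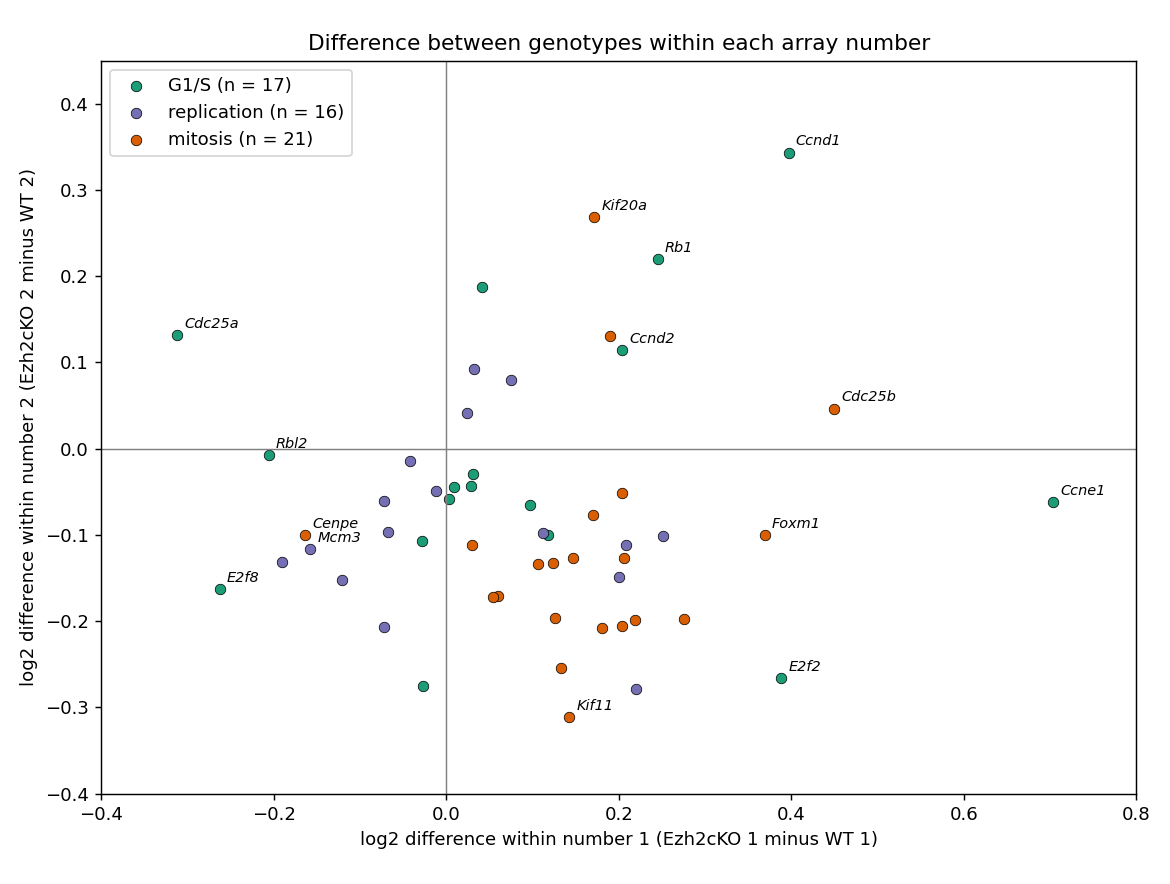
Log2 difference between Ezh2cKO and WT within number 1 (horizontal) and within number 2 (vertical) for the 54 genes, coloured by phase. The 17 mitosis genes in the lower right quadrant were higher within number 1 and lower within number 2, and Ccnd1, Rb1 and Ccnd2 lie in the upper right.

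For mitotic entry, Cdk1, the kinase that starts mitosis, had 4833 and 4312 in WT and 5570 and 4162 in Ezh2cKO (log2 0.08, SE 0.19). Its partner cyclins Ccna2 and Ccnb2 kept the same order, with 3293 and 2800 in WT and 3794 and 2425 in Ezh2cKO for Ccna2. Ccnb2 had 3667 and 2622 in WT and 3950 and 2390 in Ezh2cKO. In all 3 genes the Ezh2cKO arrays enclosed the WT arrays. Foxm1, which activates G2 and M genes, had 872 and 1252 in WT and 1130 and 1167 in Ezh2cKO (log2 0.13, SE 0.24) and was lowest in WT replicate 1. Cdc25b, a phosphatase that activates Cdk1, had 887 and 913 in WT and 1218 and 943 in Ezh2cKO, both above WT (log2 0.25, SE 0.21). Its difference was 0.45 within number 1 and 0.05 within number 2, so it rests mostly on Ezh2cKO replicate 1.

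Of the mitotic kinases and checkpoint genes, Cdc20, the activator of the anaphase-promoting complex, had 8091 and 6066 in WT and 8403 and 5382 in Ezh2cKO (log2 -0.06, SE 0.26). By brightest probe sets Aurkb, the kinase of the chromosomal passenger complex, was spread furthest, with 1939 and 1105 in WT and 2128 and 924 in Ezh2cKO. The other kept probe set of Aurkb had 1208 and 1000 in WT and 1057 and 899 in Ezh2cKO. It was less spread and lower in Ezh2cKO within both numbers (-0.19 and -0.15). Plk1, a kinase of spindle assembly and exit, had 2715 and 2011 in WT and 2830 and 1784 in Ezh2cKO. In all 3 both arrays numbered 1 lay above both numbered 2, as they did in all 9 genes of this role. Bub1b, the checkpoint kinase BubR1, had 2407 and 1587 in WT and 2748 and 1739 in Ezh2cKO (log2 0.16, SE 0.31). By brightest probe sets it was the exception in this role in being higher in Ezh2cKO within both numbers.

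On chromosomes and the spindle, Top2a, the topoisomerase that untangles sister chromatids, had 6939 and 6662 in WT and 7562 and 6073 in Ezh2cKO (log2 -0.005, SE 0.16), a sign that turned to 0.01 under quantile normalization. Mki67, the antigen used to mark cycling cells, had 5799 and 5394 in WT and 5920 and 4993 in Ezh2cKO (log2 -0.04, SE 0.15). Both markers of cycling cells had Ezh2cKO arrays on either side of WT. Kif20a, a kinesin of cytokinesis, had 1416 and 816 in WT and 1598 and 986 in Ezh2cKO (log2 0.22, SE 0.36) and was higher in Ezh2cKO within both numbers. Cenpe, a kinesin at the kinetochore, had 1244 and 981 in WT and 1109 and 914 in Ezh2cKO (log2 -0.13, SE 0.22). By brightest probe sets it was the only mitosis gene lower within both.

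The number separated the 21 mitosis genes more than the genotype did. In 19 of 21 both arrays numbered 1 lay above both numbered 2, beside 11 of 16 replication genes, 5 of 17 G1/S genes, 37.4% of all genes and 50.9% of the genes with a mean signal of at least 500. Among the other pathway genes described below, both arrays numbered 1 lay above in a smaller share of mitosis genes, 43 of 68 (63.2%). For other G1/S and replication genes it was 28 of 54 (51.9%). Both lay below in 1 of 21 mitosis genes (Foxm1), 1 of 16 replication genes and 4 of 17 G1/S genes, beside 31.4% of all genes. The median log2 difference between numbers (1 minus 2) of the mitosis genes was 0.22 in WT and 0.54 in Ezh2cKO, against 0.12 and 0.26 for replication, -0.05 and 0.05 for G1/S, and 0.03 and 0.05 for all genes. Genes with a mean signal of at least 500 had 0.11 and 0.17, so the replication value in WT was near that of genes of such signal. The 68 other mitosis genes had 0.12 and 0.34, in WT also near that value. The 54 other G1/S and replication genes had 0.10 and 0.27. Scaling to a common median moved all genes to 0.59 and 0.79 and the 21 mitosis genes to 0.79 and 1.29, so these 21 stayed above all genes. Quantile normalization gave 0.14 and 0.45 for the 21 mitosis genes and 0.09 and 0.14 for all genes, which left a smaller gap in WT.

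Other measures of the arrays moved with the number and with this order. The ratio of 3′ to 5′ signal of Gapdh, a sign of RNA integrity and labelling, was 0.935 and 0.842 in WT and 0.998 and 0.802 in Ezh2cKO, and that of Actb was 1.49 and 1.36 in WT and 1.56 and 1.30 in Ezh2cKO. Both ratios had the order of the mitosis genes. All 6 endothelial markers (Pecam1, Cdh5, Kdr, Tek, Emcn and Tie1) had exactly the reverse order, as 10.3% of all genes did, and their summed signal was 5757 and 6811 in WT and 2669 and 7496 in Ezh2cKO. None of the 6 was at 0, and Cdh5 had 1881 and 2116 in WT and 791 and 2180 in Ezh2cKO. The 7 fibroblast markers summed to 48595 and 54187 in WT and 45958 and 57523 in Ezh2cKO, in the same reverse order as sums and for 3 of the 7 genes, and Col1a2 ran from 10978 to 15102. Their part in the mitosis result was not tested.

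**Figure D3:**
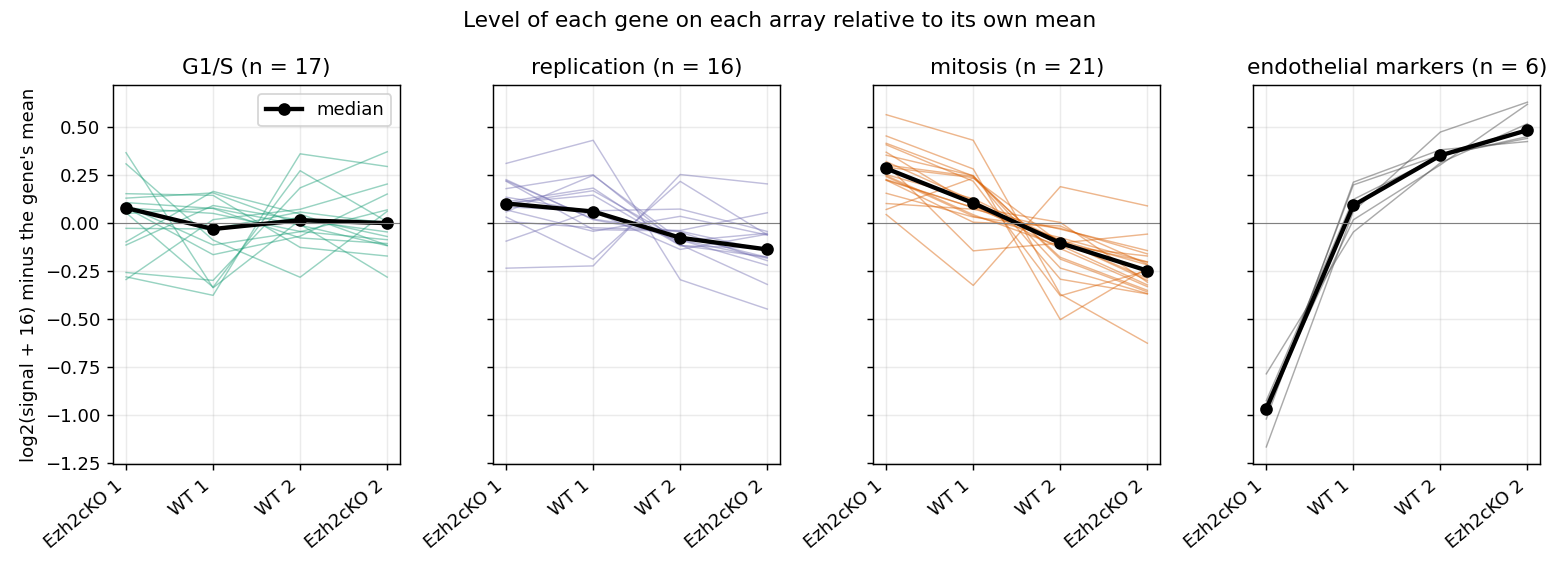
Level of each gene on each array, as log2(signal + 16) minus the gene's mean over the 4 arrays, with arrays ordered from Ezh2cKO replicate 1 to Ezh2cKO replicate 2. Thin lines are genes and the thick line is their median. The mitosis median falls from 0.28 to -0.25 across the panel, the G1/S median stays within 0.08 of 0, and the 6 endothelial markers run the opposite way.

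Further lists of cells and states were measured on the same arrays. Hair placode markers (8 genes) summed to 7159 and 4228 in WT and 8579 and 4644 in Ezh2cKO, and Shh, their signal, had 1918 and 451 in WT and 2301 and 587 in Ezh2cKO, again high in the arrays numbered 1. The 10 dissociation and stress genes summed to 38036 and 63119 in WT and 57037 and 85973 in Ezh2cKO, low in the arrays numbered 1 within each genotype. Of the 10, 9 were higher in Ezh2cKO within both numbers, beside 25.2% of all genes. The 11 suprabasal markers summed to 53240 and 45615 in WT and 59561 and 51636 in Ezh2cKO. Of these, 6 (54.5%) were higher in Ezh2cKO without overlap and 8 (72.7%) within both numbers, beside 8.52% and 25.2% of all genes. Their median log2 difference was 0.39. In limma 4 were higher with an unadjusted p under 0.05, beside 67 of all 12703 genes. Summed signals over the arrays ran from 799 to 1194 for 7 immune, 1284 to 2128 for 7 melanocyte, 438 to 661 for 5 Merkel cell and 285 to 429 for 4 erythroid markers. Their part in the result was not tested.

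The arrangement was also counted over probe sets. Over all 36 kept probe sets of the mitosis genes 23 (63.9%) were higher within number 1 and lower within number 2, and of the 15 that were not the brightest of their gene 6 were, beside 23.8% of all kept single-symbol probe sets. Brightness moved with the number. Of the 20 kept probe sets of the 54 genes with a mean signal under 500, 19 were lower in the arrays numbered 1 (median log2 -0.53, beside -0.40 for all such probe sets), and of the 93 brighter ones 65 were higher (0.19, beside 0.10). In 32 of the 38 genes with several kept probe sets the dimmest lay further towards number 2 than the brightest did. For Top2a the difference between numbers was 0.19 for the brightest and -1.42 for the dimmest probe set, for Rrm1 0.31 and -1.81, and for Rbl1 0.29 and -1.73. In 20 of the 38 genes the probe sets gave genotype differences of opposite sign.

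**Figure D4:**
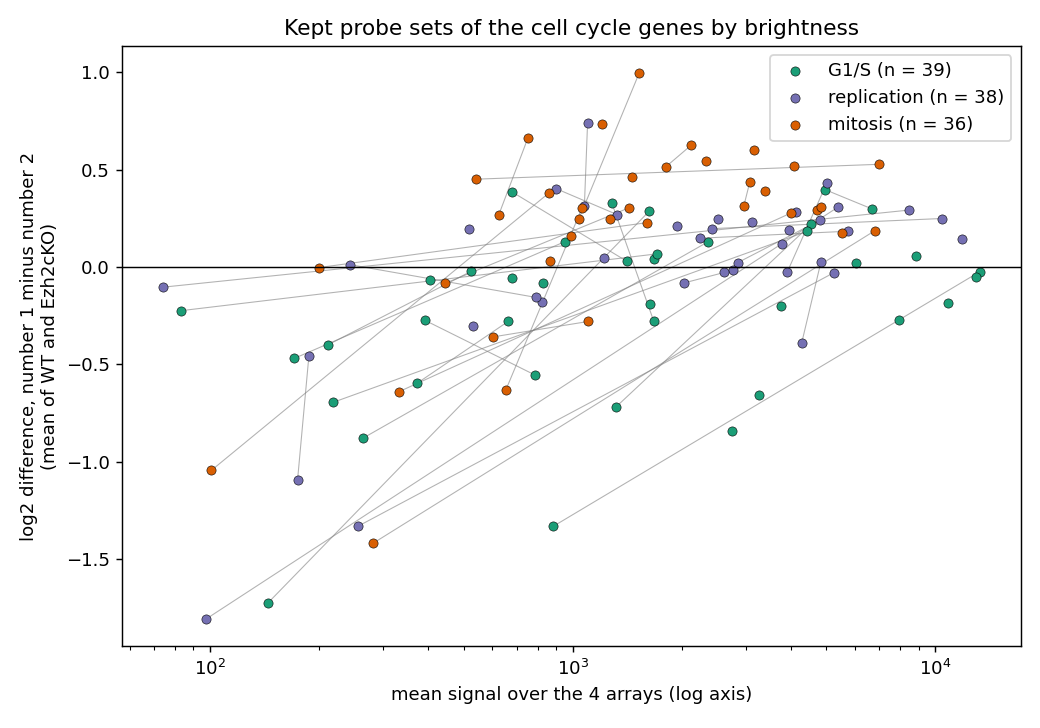
Log2 difference between arrays numbered 1 and 2 (mean of WT and Ezh2cKO) against mean signal (log axis) for the 113 kept probe sets, coloured by phase. Grey lines join the brightest and dimmest probe set of a gene. Of the 20 probe sets under 500, 19 lie below 0, and 65 of the 93 brighter ones lie above.

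Other genes of the pathway were counted in the same way. Of 58 other G1/S and replication genes, 54 were kept and 0 passed the test. Without overlap between genotypes, 4 lay higher in Ezh2cKO (7.41%) and 3 lower (5.56%), near the 8.52% and 8.39% of all genes, and 34 (63.0%) were higher within number 1 and lower within number 2, beside 27.6%. Orc1, an origin recognition subunit, had 245 and 332 in WT and 346 and 355 in Ezh2cKO. Mcm8, a helicase of recombination repair, had 307 and 368 in WT and 424 and 382 in Ezh2cKO. Clspn, the Chek1 adaptor claspin, had 1580 and 1439 in WT and 1366 and 1261 in Ezh2cKO. These 3 had the largest moderated t of their list, Orc1 and Mcm8 higher and Clspn lower without overlap.

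Of 71 other mitosis genes, 68 were kept and 0 passed. Without overlap, Ezh2cKO was higher in 1 gene (1.47%) and lower in 5 (7.35%), beside 8.52% and 8.39% of all genes. Of the 68, 41 (60.3%) were higher within number 1 and lower within number 2, beside 27.6%, and 21 (30.9%) were lower within both, beside 25.6%. Spc24, a kinetochore protein, had 2164 and 1780 in WT and 1715 and 1572 in Ezh2cKO. Kntc1, a checkpoint protein of the kinetochore, had 1151 and 1237 in WT and 866 and 1174 in Ezh2cKO. Sgo1, which protects centromeric cohesion, had 1190 and 1236 in WT and 1179 and 963 in Ezh2cKO. Ezh2cKO was lower without overlap for Spc24 and Sgo1, and the Kntc1 arrays overlapped.

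The E2F, DREAM and MYB list (11 of 12 kept, 0 passed) had a median log2 difference of -0.10, with 2 genes higher (18.2%) and 3 lower (27.3%) without overlap, beside 8.52% and 8.39% of all genes. Lin54, a DNA-binding MuvB subunit, had 704 and 722 in WT and 544 and 624 in Ezh2cKO, and Lin9, another subunit, had 507 and 435 in WT and 331 and 430 in Ezh2cKO. Tfdp2, a dimer partner of E2F, had 722 and 572 in WT and 583 and 500 in Ezh2cKO. Lin54 and Lin9 were lower without overlap, and Tfdp2 overlapped.

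Among the inhibitors of cyclin-dependent kinases (6 of 7 kept, 0 passed), Cdkn2b, which blocks Cdk4 and Cdk6, had 124 and 112 in WT and 308 and 219 in Ezh2cKO. It was higher without overlap (log2 1.04, SE 0.34, limma unadjusted p 0.024 and adjusted p 0.999979). Cdkn1b, which encodes p27, had 1385 and 1421 in WT and 1206 and 1157 in Ezh2cKO, lower without overlap (log2 -0.25, SE 0.17). Cdkn2c, another Cdk4 and Cdk6 inhibitor, had 1772 and 1473 in WT and 2125 and 1657 in Ezh2cKO, with overlap. Cdkn2b was thus the only gene of these 4 lists with an unadjusted p under 0.05.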

How the data were processed

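Biotin-labelled RNA of sorted basal cells was measured on Affymetrix arrays, whose type the design text writes in more than 1 way. The authors deposited MAS5 intensities (signals), per the submitters' processing notes, on a linear scale with 1 value per probe set and array. The version is not given in the sources used here. The trimmed mean was 500 on each array, so the authors' scaling of the intensities was kept. Without detection calls, which were not used here, a dim signal cannot be set against background.

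Of 45101 probe sets, 64 controls were left out. Of the other 45037, 34945 had 1 symbol, 932 several and 9160 no listed gene, and only single-symbol probe sets were named, of which 34741 matched RefSeq by gene ID. The 2 probe sets that list Tyms or Foxm1 with other genes were left out. Values were taken as log2(signal + 16), and probe sets in the upper 60% by mean were kept. Fold changes on this scale understate those of dim genes. Levels of different probe sets are not compared.

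The genotype test was that of limma 3.58.1 under R 4.3.3, with lmFit and eBayes, an intensity trend and no block (2 residual degrees of freedom), Benjamini-Hochberg adjusted over the kept probe sets with a threshold of 0.05, and tested on simulated data. The number of arrays limits the precision. The members and lists were chosen with earlier results of these data known, so no list was tested and no p was adjusted over a list alone. Full statistics were given for genes whose arrays did not overlap, the 2 with the largest moderated t and the brightest in each role. Other pathway genes were named if among the 3 largest moderated t of their list. Further genes of the set were named with their signals. Alternatives were other pseudocounts, filters and scalings, averaged probe sets, no trend, the replicate number as a block, and each array left out.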

Additional observations from a re-analysis of the deposited data

How the results depend on the processing

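With 4 arrays and no block, the genotype test did not pass even Ezh2, at 0.202 and 0.366 times WT within the numbers. The largest log2 difference of any gene, 3.15 in size, did not pass either. A gene that did not pass may therefore still differ, also by a large amount. When an array is left out, a lone array in a genotype is assumed to vary like the others. No probe set passed with all arrays and no block. With the replicate block 6 probe sets passed, and with an array left out 0 to 52 did, but 0 of them were among the 113 of the cell cycle genes in any setting. Numbers 1 and 2 are not tied by the labels to a litter or batch, and with 2 pairs the samples share only a number. Same-numbered arrays deviated together (correlation of deviations 0.77, by ranks 0.75), so paired values are given as differences within each number.

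The count of genes higher in both Ezh2cKO arrays was 0 and that of genes lower was 0 with arrays scaled to a common median, and with an array left out they ran from 7 to 34 and from 5 to 36. The medians ran from -0.025 to 0.076 for G1/S, from -0.13 to 0.083 for replication and from -0.27 to 0.27 for mitosis with an array left out, and the causes were not tested.

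Of 13 alternatives, 4 (the filters, the block and the trend) cannot move the log2 difference of a named gene. Over the 20 named genes, leaving out an array reversed 21 of 80 differences, averaging probe sets 4 of 20, and other pseudocounts and scalings 1 of 80, in 13 genes in all. When the probe sets of a gene were averaged, the difference was 0.11 for E2f8, 0.020 for Rrm1, -0.0022 for Rrm2 and 0.038 for Top2a, and with quantile normalization 0.011 for Top2a. With an array left out, the differences ran from -0.39 to 0.11 for Mcm6, -0.16 to 0.10 for Mcm7, -0.33 to 0.0074 for Rrm1, -0.10 to 0.26 for Rrm2, -0.045 to 0.11 for Pcna, -0.12 to 0.39 for Foxm1, -0.13 to 0.29 for Cdk1, -0.17 to 0.49 for Bub1b, -0.38 to 0.26 for Cdc20, -0.17 to 0.61 for Kif20a, -0.30 to 0.037 for Cenpe and -0.16 to 0.15 for Top2a. Signal over background limits the dim probe sets, and detection calls were not used here.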
